A study of Homo sapiens with 19 samples.

Results

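Acetylation of lysine 27 on histone H3 (H3K27ac) was examined around 7 genes that drive cells from G1 into S phase: the D-type cyclins CCND1, CCND2 and CCND3, their catalytic partners CDK4 and CDK6, and the later cyclins CCNE1 and CCNA1. The genes were chosen by name, with earlier results of these data known, as 7 of the 20033 protein-coding genes of GENCODE release 44. Chromatin immunoprecipitation followed by sequencing (ChIP-seq) had been performed in leukaemia lines of human origin. The lines HL-60, Molm13 and OCI-AML3 were taken from patients with acute myeloid leukaemia (AML), whereas K562 represents chronic myeloid leukaemia in blast crisis. HL-60 and Molm13 were untransduced wild-type cells. OCI-AML3 and K562 expressed a catalytically dead Cas9 fused to the KRAB repressor domain and mCherry, together with an sgRNA vector holding no guide, so that vector and cell line cannot be told apart. Each line gave 1 library with a peak list, so that no SD and no test between lines was possible, and values are described side by side.

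The number of deposited peaks was 20814 for HL-60 and 37484 for K562, with 35206 for Molm13 and 37606 for OCI-AML3, covering between 24.1 and 76.8 Mb of chromosomes 1 to 22, X and Y. Read numbers were unknown, and the absence of a peak therefore means only that none was called. The line labels were checked against peaks at lineage genes. Of 10 granulocyte and monocyte genes, 8, 10, 10 and 5 had a peak within 500 bp of a start in HL-60, Molm13, OCI-AML3 and K562. Of 10 erythroid and megakaryocyte genes the counts were 2, 2, 1 and 10, with GATA1 and KLF1 called in K562 and in none of the AML lists. CSF1R and LYZ had no peak at a start in HL-60, whereas LYZ had one in K562. Of 6 lymphoid genes the counts were 3, 2, 2 and 2, with CD3E, CD3D and CD2 in no list.

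D-type cyclins are induced by growth signals and bind CDK4 or CDK6, and these kinases phosphorylate the retinoblastoma protein, which releases E2F transcription factors. Cyclin E1, an E2F target, then activates CDK2, and A-type cyclins act during and after S phase. Cyclin A1 is best known from the germ line and is also found in myeloid leukaemia. H3K27ac marks active promoters and enhancers, and broad stretches of it are often seen over genes important to a cell's identity.

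The promoters of 5 of the 7 genes were held by the RefSeq promoter table (build GRCh38.p14), with 8 promoters in all. CCND1 and CCND2 were not among them. Bases from the 250 before each of 5 starts are shown because their position relative to the peaks differed between genes. At CDK4 and CCNA1 only the longest stretch free of coding-gene exons is shown, and it does not reach the start. All 5 sequences are written 5′ to 3′ on the strand of the gene without exons of protein-coding genes, and capitals mark the motifs given after them.
CDK6, chr7:92836574-92836823, minus strand: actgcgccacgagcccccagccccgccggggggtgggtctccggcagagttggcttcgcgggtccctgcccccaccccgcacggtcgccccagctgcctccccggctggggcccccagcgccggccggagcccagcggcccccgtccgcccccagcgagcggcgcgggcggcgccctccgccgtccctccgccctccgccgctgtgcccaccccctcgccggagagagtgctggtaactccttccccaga
CCND3, chr6:41941809-41942058, minus strand: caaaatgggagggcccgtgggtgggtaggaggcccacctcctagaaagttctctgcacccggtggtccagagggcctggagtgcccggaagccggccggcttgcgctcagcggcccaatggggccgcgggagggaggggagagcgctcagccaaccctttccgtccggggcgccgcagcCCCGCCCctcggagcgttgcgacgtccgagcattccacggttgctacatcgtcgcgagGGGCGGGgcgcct
CDK4, chr12:57752448-57752560, minus strand: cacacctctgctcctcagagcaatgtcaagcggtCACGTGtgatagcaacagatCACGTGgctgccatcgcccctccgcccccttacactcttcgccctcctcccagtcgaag
CCNE1, chr19:29811741-29811990, plus strand: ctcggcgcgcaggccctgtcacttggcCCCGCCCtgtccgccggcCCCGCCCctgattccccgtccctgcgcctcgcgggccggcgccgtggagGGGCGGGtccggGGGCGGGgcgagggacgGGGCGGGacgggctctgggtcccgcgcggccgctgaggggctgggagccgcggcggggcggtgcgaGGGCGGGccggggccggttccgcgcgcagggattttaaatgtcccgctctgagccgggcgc
CCNA1, chr13:36431777-36431902, plus strand: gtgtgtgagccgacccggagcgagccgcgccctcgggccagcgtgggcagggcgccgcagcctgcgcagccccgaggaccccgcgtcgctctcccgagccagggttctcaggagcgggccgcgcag

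The windows shown held more CpG than the median promoter. In the 250 bases before the start, CpG was found 39 times at CCNE1, 31 times at CCNA1, 30 times at CDK6, 26 times at this CCND3 start and 19 times at CDK4, against a median of 17 over 21613 promoters. Of the windows not shown, CpG was found 26 times at the CCND3 start near TAF8, 23 times at a second CDK6 start and 3 times at an internal CCND3 start. GC content was 81.2% at CCNE1 and 80.0% at CDK6, against a median of 62.0%. Exact matches were searched on both strands of these 250 bases. The Sp/KLF motif GGGCGGG occurred 6 times at CCNE1, 3 times at the CCND3 start near TAF8, 2 times at the CCND3 start shown and 1 time at CDK4, in the stretch left out, and it was present in 41.2% of all promoters. The E-box CACGTG, the core site of MYC and related factors, occurred 3 times at CDK4, not always within the stretch shown. It occurred at no other of the 8 promoters, against a share of 7.38% of all promoters. The ETS motif GAGGAAG was found at 1 of the 8 promoters, this internal CCND3 start, and in 11.9% of all promoters. The E2F motifs TTTCCCGC, TTTGGCGC and TTTCGCGC, the RUNX motif TGTGGT and the GATA motif AGATAA had no exact match at the 8 promoters, and occurred in 2.98%, 9.40% and 7.03% of all promoters, the 3 E2F spellings counted together. Matches of different motifs were allowed to overlap. The windows held different amounts of acetylated chromatin. At CDK6 all 250 bases lay in a peak in Molm13, OCI-AML3 and K562 and 1 base in HL-60. At CCNE1 none of the 250 bases lay in a peak in any line, because the peak ended further upstream. At CCNA1 all 250 bases were covered in Molm13, 53 in OCI-AML3 and 0 in HL-60 and K562. The bases covered in OCI-AML3 lie next to the start, almost wholly outside the stretch shown.

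Peaks at a start, meaning within 500 bp of any annotated start, were called for all 7 genes in Molm13 and OCI-AML3 and for 6 of the 7 in HL-60 and K562. Of all protein-coding genes, 44.7% had such a peak in HL-60 and 53.9% in Molm13, with 57.7% in OCI-AML3 and 55.9% in K562. CCND1, CCND2, CCND3, CDK4, CDK6 and CCNE1 were called in all 4 lists, as were 40.5% of all protein-coding genes. CCNA1 was called in Molm13 and OCI-AML3 and not in HL-60 or K562, a pattern shared by 556 protein-coding genes, or 2.78%. The strength of a peak is given as fold enrichment, the ratio of signal to local background averaged over the peak by the caller. Because this scale differed between lists, each gene's strongest peak was also placed as a percentile among all protein-coding genes of the same list, with genes without a peak at 0. The lowest percentile open to a called gene is thus higher in a list with fewer called genes. It is highest in HL-60, where the share called was 44.7%. The median fold enrichment over the genes with a peak was 6.31 in HL-60 and 8.29 in Molm13, against 4.00 in OCI-AML3 and 3.98 in K562, where the medians over all protein-coding genes with a peak were 5.14, 6.30, 3.97 and 3.65. For CCND3 in HL-60 the value used was 8.32, from a peak next to TAF8 that lay outside the CCND3 body. The peak near the canonical CCND3 start had 4.62-fold enrichment there. The HL-60 median thus rests in part on a peak that cannot be assigned to CCND3 or TAF8.

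**Figure D1:**
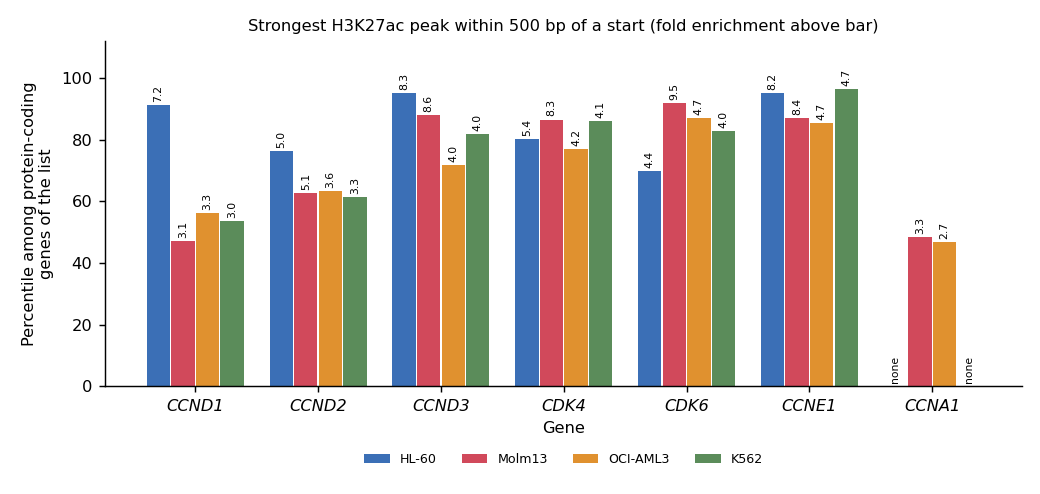
Bars give, for each gene and line, the percentile of its strongest H3K27ac peak within 500 bp of a start among 20033 protein-coding genes of that list, and the number above each bar is the peak's fold enrichment. CCNE1 lay between the 85.5th and 96.6th percentile in the 4 lines, CCND1 was highest in HL-60 (91.3) and CCNA1 had no peak in HL-60 or K562.

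CCND1 encodes cyclin D1, the D-type cyclin best known from epithelial tumours and mantle cell lymphoma. The gene lies at chr11:69641156-69654474 on the plus strand of hg38. Its promoter peak had a fold enrichment of 7.18 in HL-60 and 3.06 in Molm13, compared with 3.27 in OCI-AML3 and 3.04 in K562. These values corresponded to percentiles of 91.3, 47.0, 56.3 and 53.7 among protein-coding genes, so that HL-60 stood above the other lines on both scales. Among all peaks of its own list, the peak lay at the 92.8th, 16.4th, 62.4th and 60.5th percentile by fold enrichment. The peaks were 1.94, 1.79, 2.52 and 1.12 kb wide and covered the start or, in K562, began 126 bp after it. The Molm13 peak was the weakest call, with a q-value of 0.0272, and it was absent when only peaks with a q-value below 0.001 or only the 20772 strongest peaks of that list were kept. Within 100 kb of CCND1 each list had 1 other peak, at the start of LTO1 between 33.5 and 34.1 kb downstream. The length covered by peaks within 100 kb was 3.44, 3.04, 3.91 and 3.21 kb in HL-60, Molm13, OCI-AML3 and K562, against protein-coding medians of 3.43, 8.02, 9.43 and 11.3 kb.

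CCND2 encodes cyclin D2, a D-type cyclin used widely in blood cells, and lies at chr12:4269771-4305353 on the plus strand. Its promoter peak was broad, at 3.15 kb in HL-60, 4.68 kb in Molm13, 6.40 kb in OCI-AML3 and 6.12 kb in K562, which placed it between the 94.7th and 96.9th percentile of peak widths in the 4 lists. The fold enrichment was 5.00, 5.10, 3.61 and 3.34 in the same order, or percentiles of 76.5, 62.8, 63.3 and 61.6 among protein-coding genes. The peak also lay within 500 bp of starts of the antisense gene CCND2-AS1 and of 2 further unnamed genes, and ChIP-seq does not separate signal by strand. A second peak lay within the gene about 15.7 kb after the start, over an exon and the flanking introns. It was called in HL-60 with 3.53-fold enrichment, in Molm13 with 6.15-fold and in OCI-AML3 with 3.67-fold enrichment, and not in K562. In Molm13 and, by a small margin, in OCI-AML3 this internal peak had a higher fold enrichment than the promoter peak. In K562 the promoter peak was the only peak within 100 kb of the gene, whereas HL-60, Molm13 and OCI-AML3 had 3, 4 and 5 peaks there.

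CCND3 encodes cyclin D3 and spans chr6:41934934-42050357 on the minus strand, with a cluster of starts around the canonical one at position 41941808 and another at the far end of the annotated gene, next to the start of TAF8. Of the D-type cyclins it had the longest covered sequence in each line, in kb, as the longest of the 3 genes. By share of the body it was below both CCND1 and CCND2 in HL-60 (11.2% and 10.7%) and OCI-AML3 (15.8% and 20.9%) and below CCND2 in Molm13 (15.9%). Peaks covered 6.57 kb of the gene body in HL-60, 15.3 kb in Molm13, 15.2 kb in OCI-AML3 and 33.8 kb in K562, or 5.69%, 13.3%, 13.2% and 29.2% of its 115.4 kb. K562 was highest, and the gene ranked 117 in K562 against 287, 310 and 500 in HL-60, Molm13 and OCI-AML3 among protein-coding genes by covered body length. By covered share it ranked 1994 in K562 against 3332, 3135 and 3632. With only the 20772 strongest K562 peaks the length was 20.3 kb, still above the values of the AML lines, and the rank was 212.

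The peak at the canonical CCND3 start was 3.53 kb wide in HL-60, 10.8 kb in Molm13, 9.07 kb in OCI-AML3 and 7.97 kb in K562. Its fold enrichment was 4.62, 8.55, 4.00 and 3.96, and in HL-60 it lay downstream of the start by 362 bp. At the start cluster shared with TAF8 the enrichment was 8.32 in HL-60, where the peak was 0.373 kb wide, and 7.30 in Molm13, against 3.60 in OCI-AML3 and 2.999 in K562. Which of the genes this second peak belongs to cannot be told apart. Between the clusters, body peaks that touched no CCND3 start numbered 2 in HL-60 and 8 in Molm13, with 5 in OCI-AML3 and 10 in K562, and they summed to 3.04, 5.54, 5.08 and 22.8 kb. The widest was a K562 peak of 5.44 kb, centred 88.1 kb upstream of the canonical start, where HL-60, Molm13 and OCI-AML3 had peaks of 0.940, 0.682 and 0.873 kb at 86.8 to 86.9 kb and Molm13 a second one of 0.497 kb at 89.8 kb. A 3.71 kb region 98.0 kb upstream was called in K562 alone, with 2.40-fold enrichment. The strongest K562 peak away from starts, 25.6 kb upstream, had 4.06-fold enrichment, and no other list had a peak at that position.

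CDK4, at chr12:57747727-57756013 on the minus strand, is the shorter of the kinase genes and lies in a gene-dense stretch. Its promoter peak had a fold enrichment of 5.44 in HL-60 and 8.29 in Molm13, against 4.23 in OCI-AML3 and 4.12 in K562, at percentiles of 80.2, 86.6, 77.1 and 86.2. The peak was 1.41 kb wide in HL-60, 2.55 kb in Molm13, 2.26 kb in OCI-AML3 and 3.42 kb in K562. OCI-AML3 and K562 also had a peak at an alternative start near MARCHF9, with 2.996-fold and 2.83-fold enrichment. Of the peaks within 100 kb, 6 of 7 in HL-60, 7 of 10 in Molm13, 7 of 10 in OCI-AML3 and 8 of 16 in K562 lay at starts of other genes and at none of CDK4, among them METTL1, TSFM, TSPAN31 and CTDSP2. HL-60 had no CDK4 peak away from every start, and those of the other lines did not exceed 3.17-fold enrichment. A region of 3.25 kb about 92.6 kb downstream was called in K562 alone, with 2.49-fold enrichment.

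CDK6, the other cyclin D-dependent kinase and a drug target together with CDK4, showed the largest differences in covered length between lines among the 7 genes. The gene spans 231.7 kb at chr7:92604921-92836573 on the minus strand. Peaks covered 11.2 kb of the gene body in HL-60, 80.1 kb in Molm13, 109.1 kb in OCI-AML3 and 17.9 kb in K562, or 4.81%, 34.6%, 47.1% and 7.71% of its length. Molm13 and OCI-AML3 were thus several times higher than HL-60 and K562. By covered body length the gene ranked 5 of 20033 in both Molm13 and OCI-AML3, 68 in HL-60 and 491 in K562. This measure favours long genes, and CDK6 ranked 1215 by length. By the covered share of the body it ranked 999 in Molm13, 718 in OCI-AML3, 3792 in HL-60 and 6630 in K562, with Molm13 and OCI-AML3 again ahead of HL-60 and K562. The genes ahead of it by covered length in Molm13 were JMJD1C, TBC1D5, NCAM2 and ETV6, and those in OCI-AML3 were TBC1D5, ETV6, FRY and JMJD1C. All of these 5 genes were longer than CDK6, and they were chosen for naming after their values were seen.

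**Figure D2:**
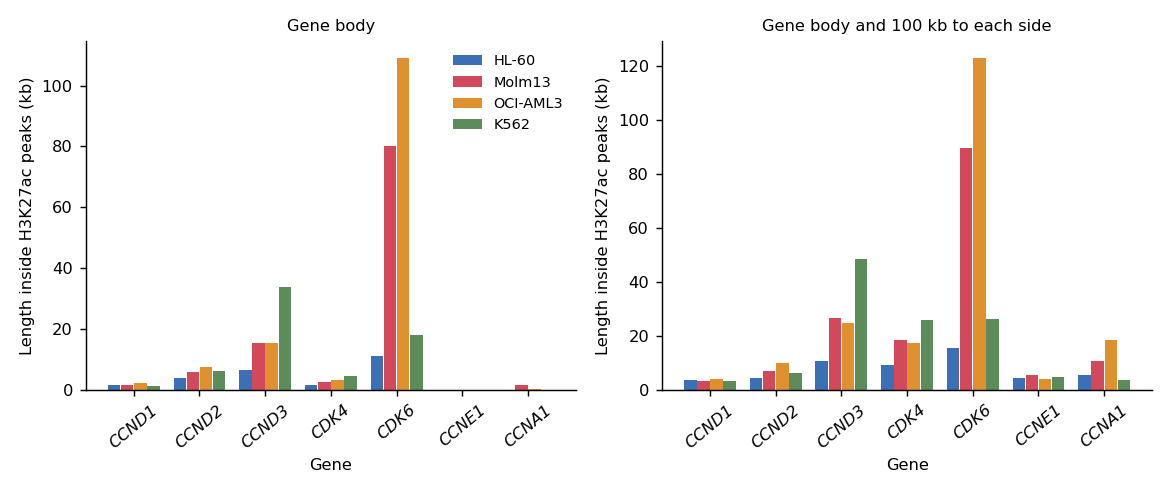
Bars give the length inside H3K27ac peaks in kb, in the gene body at left and in the gene body with 100 kb to each side at right, for each gene and line. CDK6 reached 80.1 kb in Molm13 and 109.1 kb in OCI-AML3 in the gene body, and CCND3 was highest in K562 at 33.8 kb.

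The lists differed in total covered length, which was 2.91 times as long in OCI-AML3 as in HL-60. The covered length of CDK6 was 9.78 times as long in OCI-AML3 as in HL-60, and 3.36 times when both were divided by the length of the list. Against K562, whose list covered more than any other, the ratio was 6.11 in OCI-AML3 and 4.48 in Molm13, and 6.69 and 5.92 after the division. With peaks of q-value below 0.001 alone, the covered lengths were 7.17, 45.4, 71.3 and 6.97 kb in HL-60, Molm13, OCI-AML3 and K562, and the ranks 115, 12, 8 and 1342. With lists of equal length they were 11.2, 55.8, 79.4 and 8.32 kb. The order of Molm13 and OCI-AML3 above HL-60 and K562 held in both of these settings, while HL-60 and K562 changed places.

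At the CDK6 start the peak was 4.02 kb wide in HL-60, 11.1 kb in Molm13, 11.1 kb in OCI-AML3 and 5.03 kb in K562. Its fold enrichment was 4.36, 9.52, 4.74 and 4.00, at percentiles of 69.7, 92.0, 87.0 and 82.8. By width it ranked 434 of 20772 peaks in HL-60, 204 of 35136 in Molm13, 318 of 37571 in OCI-AML3 and 3013 of 37424 in K562. The peak also lay within 500 bp of a start of the antisense gene CDK6-AS1. OCI-AML3 had a further peak of 12.1 kb with 3.41-fold enrichment at an alternative start inside the gene. In HL-60 the peak at the canonical start reached 1 base upstream of the canonical start, so that it lay almost wholly within the gene.

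Most of the CDK6 coverage in Molm13 and OCI-AML3 lay away from the CDK6 starts. Body peaks that touched no CDK6 start numbered 5 in HL-60 and 25 in Molm13, compared with 25 in OCI-AML3 and 14 in K562, and summed to 7.13, 72.4, 90.3 and 14.4 kb. Those at least 5 kb wide numbered 6 in Molm13, 7 in OCI-AML3 and 0 in HL-60 and K562. Nearly all were intronic: 2 of 25 in Molm13, 2 of 25 in OCI-AML3, 1 of 14 in K562 and 0 of 5 in HL-60 touched a CDK6 exon. The widest was a 16.3 kb peak in OCI-AML3, centred 197.3 kb after the start and with 4.49-fold enrichment, which ranked 125 of the list by width. It also lay within 500 bp of starts of 2 unnamed genes, and these starts lie inside CDK6. In Molm13 the same stretch held 4 separate peaks of 1.17 to 6.22 kb.

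**Figure D3:**
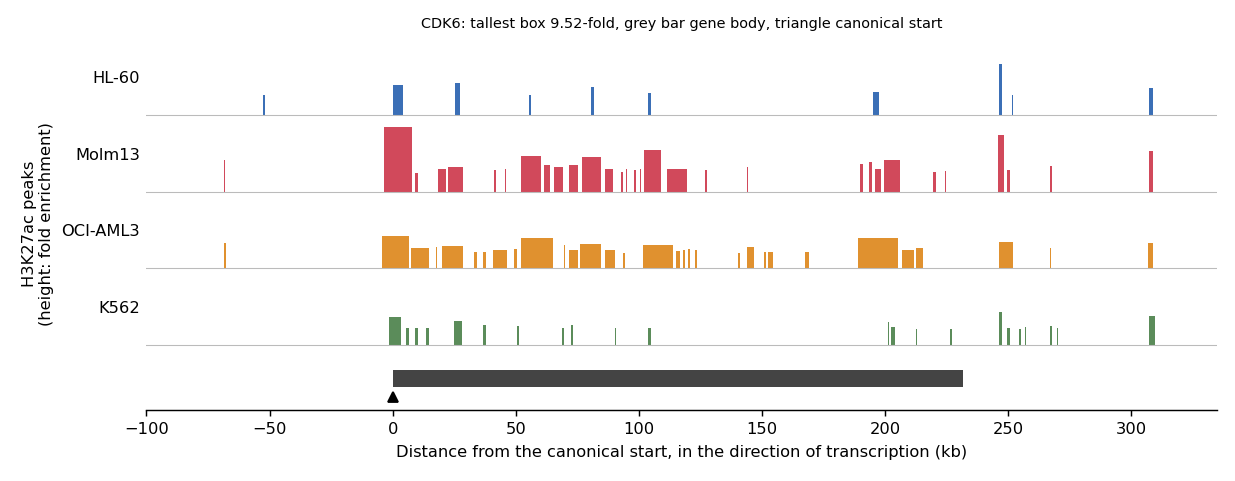
H3K27ac peaks over CDK6 and its surroundings, with distance in kb from the canonical start in the direction of transcription on the horizontal axis, 1 row per line and box height proportional to fold enrichment (tallest box 9.52-fold). Wide boxes fill much of the gene body in Molm13 (26 body peaks) and OCI-AML3 (27), while HL-60 has 6 and K562 has 15 narrower ones.

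The covered stretches of CDK6 coincided in part between lines. Molm13 and OCI-AML3 shared 64.6 kb, which was 80.7% of the covered length in Molm13 and 59.2% of that in OCI-AML3. All 11.2 kb covered in HL-60 were also covered in OCI-AML3. K562 shared 15.0 kb with OCI-AML3, 83.7% of its own covered length and 13.7% of that in OCI-AML3. In all 4 lists 6.28 kb was covered, and 126.9 kb in at least 1. Coverage was densest near the start. With the gene divided into 3 stretches of 77.2 kb, in the one next to the start 8.67% was covered in HL-60 and 49.3% in Molm13, with 64.8% in OCI-AML3 and 17.2% in K562. In the middle stretch the shares were 3.06%, 37.6%, 43.3% and 1.68%, and in the one next to the end 2.72%, 16.8%, 33.1% and 4.29%.

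The strongest CDK6 peak away from starts differed between lines. In HL-60 and K562 it was the same position, 26.3 kb and 26.6 kb after the start, with 4.71-fold and 3.47-fold enrichment. In Molm13 it lay 105.4 kb after the start with 6.07-fold enrichment, and in OCI-AML3 58.6 kb after the start with 4.49-fold enrichment. A peak 81.2 kb after the start in HL-60 with 4.12-fold enrichment lay within peaks of 7.63 kb in Molm13 (5.16-fold) and 8.26 kb in OCI-AML3 (3.49-fold), and K562 had none there. The middle 300 bases of the stretch shared by the lists at these 2 intronic positions are shown, the first for a region called in all 4 lists and the second for one called in the AML lists. The shared stretches were 1.83 and 1.33 kb long in the HL-60 list, and broad peaks do not place the acetylated nucleosomes more closely than that.
CDK6 intron, 26.3 kb after the start, chr7:92810096-92810395, minus strand: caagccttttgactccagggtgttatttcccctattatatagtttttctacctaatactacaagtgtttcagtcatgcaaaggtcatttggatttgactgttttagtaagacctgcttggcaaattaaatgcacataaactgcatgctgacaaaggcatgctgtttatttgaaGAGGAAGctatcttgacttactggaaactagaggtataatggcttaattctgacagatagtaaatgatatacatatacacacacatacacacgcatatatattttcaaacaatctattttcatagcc
CDK6 intron, 81.2 kb after the start, chr7:92755244-92755543, minus strand: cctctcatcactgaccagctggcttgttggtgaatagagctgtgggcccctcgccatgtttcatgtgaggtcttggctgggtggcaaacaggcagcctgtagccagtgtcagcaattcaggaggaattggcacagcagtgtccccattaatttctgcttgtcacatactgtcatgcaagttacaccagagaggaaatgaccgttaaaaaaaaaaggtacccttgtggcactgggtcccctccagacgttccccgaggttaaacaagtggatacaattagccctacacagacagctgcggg

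The first of these sequences has a GC content of 34.7% and 1 CpG and holds 1 ETS motif GAGGAAG (capitals), which was present in 14.2% of 23725 regions of the same length in the middle of OCI-AML3 peaks away from starts. The second has a GC content of 51.3% and 5 CpG and holds none of the motifs searched. OCI-AML3 alone had peaks at 209.2 and 153.6 kb after the start, 5.08 and 2.07 kb wide, with 2.69-fold and 2.43-fold enrichment. Upstream of CDK6, Molm13 and OCI-AML3 had a peak at 68.3 and 68.2 kb with 4.72-fold and 3.74-fold enrichment, where HL-60 and K562 had none. Downstream of the gene, all 4 lists had a peak at the start of FAM133B.

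CCNE1, which encodes cyclin E1, lies at chr19:29811991-29824312 on the plus strand. Its promoter peak was narrow and strong in all lines, with a fold enrichment of 8.25 in HL-60 and 8.39 in Molm13, against 4.66 in OCI-AML3 and 4.72 in K562, and percentiles of 95.1, 87.2, 85.5 and 96.6. The widths were 0.785, 1.11, 0.786 and 1.11 kb. In every list the peak ended before the annotated start, by 338, 380, 352 and 405 bp, and no base of the gene body was covered. The gene was therefore counted as having a promoter peak only through the 500 bp allowed on each side. The GC-rich sequence shown for CCNE1 lies in this uncovered gap. Within 100 kb the covered length was 4.20, 5.49, 3.74 and 4.51 kb, and the peaks away from starts did not exceed 3.39-fold enrichment.

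CCNA1 encodes cyclin A1 and lies at chr13:36431520-36442870 on the plus strand. At its starts Molm13 had a peak of 1.83 kb with 3.33-fold enrichment and OCI-AML3 one of 0.307 kb with 2.66-fold enrichment, at percentiles of 48.5 and 46.9. HL-60 and K562 had none. Both peaks were weak within their lists. The Molm13 peak, with a q-value of 0.0068, was absent at a q-value below 0.001 and with lists of equal length, and the OCI-AML3 peak was absent with lists of equal length. The genes closest to CCNA1 in promoter percentile over the 4 lists were CHRNA6, PRKCZ and GIMAP2, which differed from it by at most 0.639, 0.659 and 0.704 percentile points in any list.

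A stronger CCNA1 peak lay upstream. Centred 14.7 kb before the start, it had a fold enrichment of 4.00 in HL-60 and 6.45 in Molm13, and in OCI-AML3 a peak centred at 14.2 kb had 4.43-fold enrichment. Its width was 1.47, 1.86 and 9.48 kb, and the OCI-AML3 peak ranked 458 of 37571 by width. K562 had no peak there, and its only peak within 100 kb of the gene was at the start of SPART. The region touched no annotated exon and no gene body. Over CCNA1 and 100 kb to each side, peaks covered 5.46 kb in HL-60, 10.5 kb in Molm13, 18.2 kb in OCI-AML3 and 3.66 kb in K562. The Molm13 value was 5.26 kb with a q-value below 0.001 and also with lists of equal length, where HL-60 had 4.91 and 5.46 kb. Within 50 kb the lengths were 1.47, 7.12, 12.1 and 0 kb. The middle 300 bases of the stretch shared by the AML lists are shown because this was the strongest peak near the gene away from starts in HL-60, Molm13 and OCI-AML3.
CCNA1 upstream region, chr13:36417632-36417931, plus strand: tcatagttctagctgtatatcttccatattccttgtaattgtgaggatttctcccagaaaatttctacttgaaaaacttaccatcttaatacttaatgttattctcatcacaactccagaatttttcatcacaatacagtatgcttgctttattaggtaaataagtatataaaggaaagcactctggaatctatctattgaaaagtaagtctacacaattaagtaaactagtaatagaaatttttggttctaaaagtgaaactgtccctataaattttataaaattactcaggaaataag

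In contrast to the CCNA1 promoter, this sequence holds no CpG and has a GC content of 28.3%. Like that promoter, it has no exact match to any motif searched.

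**Figure D4:**
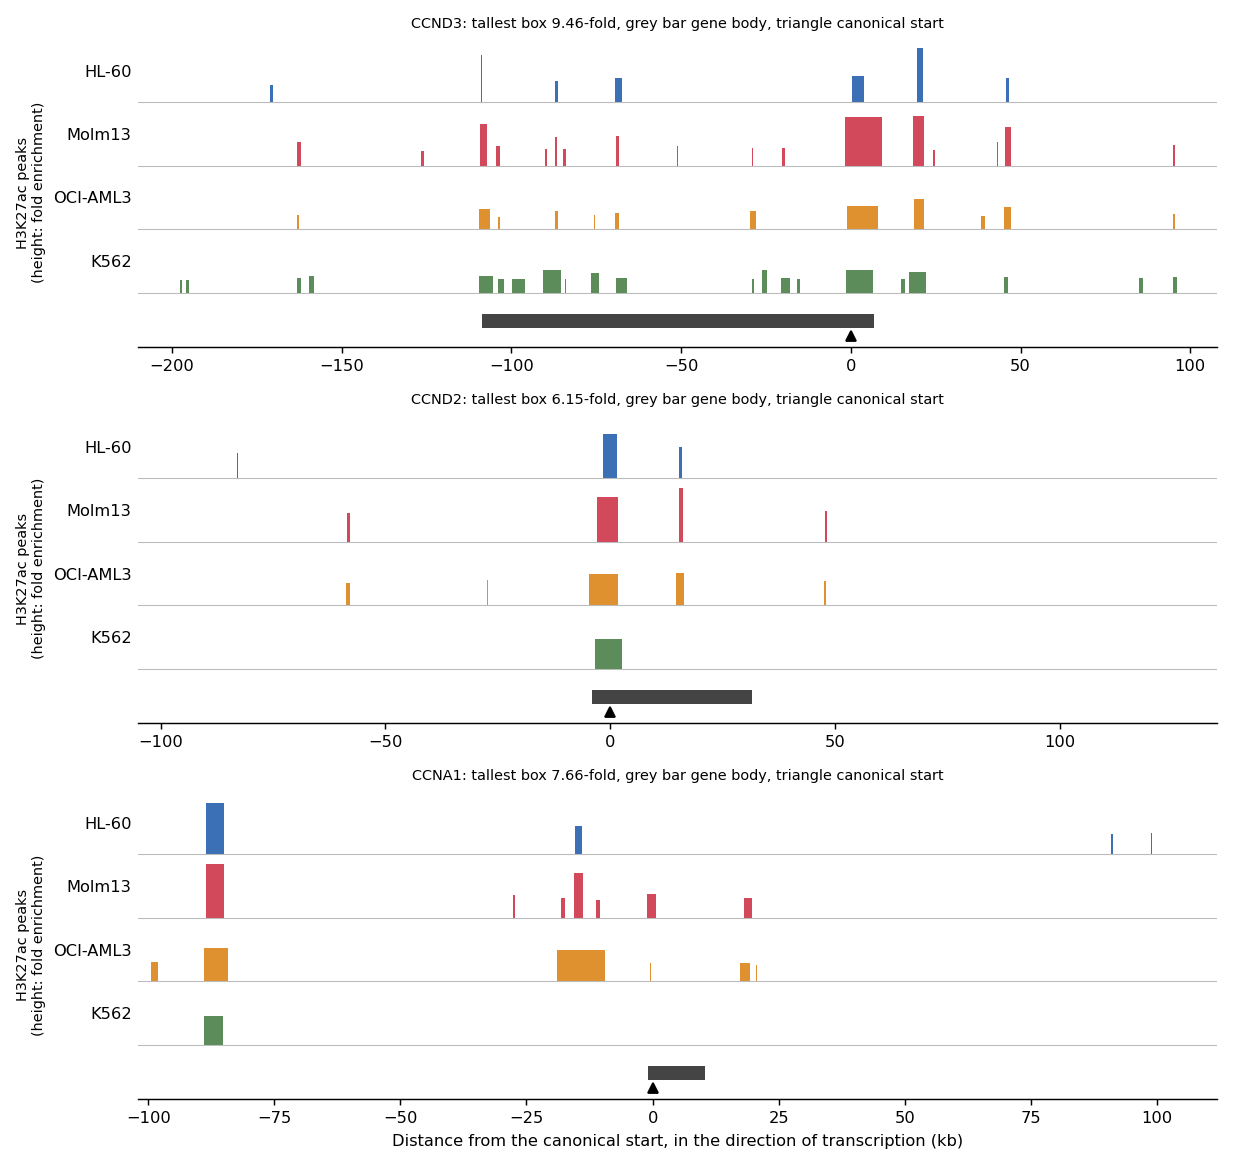
H3K27ac peaks around CCND3, CCND2 and CCNA1, with distance in kb from the canonical start on the horizontal axis, 1 row per line and box height proportional to fold enrichment within each panel. K562 has additional boxes over CCND3 and lacks the CCND2 peak near 15.7 kb and the CCNA1 peak near -14.7 kb, both present in HL-60, Molm13 and OCI-AML3.

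The 7 genes as a set were compared with all protein-coding genes by their medians, as a description. The median covered body length was 1.49 kb in HL-60, 2.55 kb in Molm13, 3.19 kb in OCI-AML3 and 4.56 kb in K562, against 0.274, 0.772, 0.964 and 0.996 kb over protein-coding genes. Within 100 kb the medians were 5.46, 10.5, 17.2 and 6.12 kb, against 3.43, 8.02, 9.43 and 11.3 kb. K562 was thus the line in which the median of the 7 genes lay below that of all genes, with 3 of 7 genes above it, compared with 7, 4 and 5 in HL-60, Molm13 and OCI-AML3. When the peaks of the 4 lists were merged, 109 regions lay within 100 kb of the 7 genes. Of these, 24 (22.0%) were covered in all 4 lists, against 11.7% of merged regions genome-wide. Among regions away from every start the counts were 2 of 75 (2.67%), against 2.19%. Of all 109 regions, a further 5 (4.59%) were covered in the AML lists and not in K562, against 3.88%. Another 8 (7.34%) were covered in Molm13 and OCI-AML3 alone, against 10.1%, and 21 (19.3%) in K562 alone, against 28.1%. Gene density around the 7 genes was not matched to that of the genome.

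Other genes of the G1 to S pathway were examined for peaks at a start. Of a list of 47 genes, 41 had such a peak in HL-60 and 42 in Molm13, compared with 46 in OCI-AML3 and 45 in K562, and 39 had one in all 4. Over all protein-coding genes the shares were 44.7%, 53.9%, 57.7% and 55.9%, and 40.5% in all 4 lists. The 12 S-phase genes, among them MCM2 to MCM7, PCNA and TYMS, were called in every list, as were the 3 pocket protein genes RB1, RBL1 and RBL2, whose products bind E2F factors. The 8 genes whose call differed were 4 inhibitors of the kinases, 3 genes of the E2F and DP factors and MNAT1. CDKN2A, which encodes the CDK4 and CDK6 inhibitor p16, had a peak at a start in HL-60 (6.67-fold) and OCI-AML3 (3.43-fold) and not in Molm13 or K562. Its neighbour CDKN2B had one in OCI-AML3 alone (3.35-fold). CDKN1A, which encodes p21, had one in Molm13 (5.97-fold), OCI-AML3 (3.25-fold) and K562 (2.42-fold) and not in HL-60. CDKN1C had one in K562 alone (2.75-fold). E2F5 and TFDP1 were called in all lines but HL-60, E2F7 in OCI-AML3 and K562, and MNAT1, a subunit of the CDK-activating kinase, in all lines but Molm13. The remaining INK4 genes, CDKN2C and CDKN2D, were called in all 4 lists, with the body of each fully covered in Molm13.

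K562 cells had also been profiled for dead Cas9 with guides against a family of endogenous retroviral repeats. Within 100 kb of the 7 genes that list had 0 peaks, and the nearest lay 1.59 Mb from CCND3. The share of all protein-coding genes with such a peak within 100 kb was not computed. Whether a count of 0 is particular to these genes was therefore not tested.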

How the data were processed

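ChIP-seq peak lists for H3K27ac (1 library per line in HL-60, Molm13, OCI-AML3 and K562) and for dead Cas9 in K562 were analysed. The other 14 of 19 samples were not analysed here. Per the study's methods and the submitters' processing notes, the authors trimmed reads (Trim Galore 0.4.5), aligned them to hg38 (Bowtie2), kept unique reads and called peaks with MACS2 2.1.1 in broad mode. The control library used for calling is not given in the sources used here. The deposited lists hold a score, the fold enrichment (a ratio), and −log10 p-values and q-values. The largest q-value in a list was 0.0947 to 0.0995, above the limit of 0.05 that the methods state. Fold enrichment and q-value were used as the authors gave them, and the score was not needed. Samples were grouped by title.

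Peaks on chromosomes 1 to 22, X and Y (20772 for HL-60, 37424 for K562, 35136 for Molm13 and 37571 for OCI-AML3) were overlapped by at least 1 bp with GENCODE release 44 starts (500 bp to each side), gene bodies and bodies with 100 kb to each side. Percentiles and ranks were taken over all protein-coding genes. No peak lay beyond the end of its chromosome. The tested code recovered 500 of 500 simulated windows. The genes, gene lists, motifs and shown regions were chosen with earlier results of these data known. All 7 genes are described. Beyond them the text names pathway genes whose promoter call differed, the 3 genes most like a gene whose call differed, the strongest peak away from starts and the widest body peak of each gene, and regions of at least 2 kb found in 1 list. Alternatives were a q-value below 0.05 or 0.001, lists cut to 20772 peaks by fold enrichment, 1000 bp around a start, the canonical start alone, 50 kb in place of 100 kb, and whole peak lengths. Python 3.11.15, NumPy 2.4.6, pandas 2.3.3, pysam 0.24.0 and samtools 1.23.1 were used.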

Additional observations from a re-analysis of the deposited data

How the results depend on the processing

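Of 76 comparisons of a count or a median over the 7 genes or the pathway list with its value under an alternative, 74 stayed within 1.5 times. The HL-60 list itself held 20772 peaks, so no HL-60 value could change with lists of equal length, here or for single genes. A fall in the Molm13 count of genes with a promoter peak from 7 to 5 also counted as within 1.5 times. The median covered length within 100 kb in Molm13 moved from 10.5 kb to 5.67 kb with a q-value below 0.001 and to 6.13 kb with lists of equal length, since fewer peaks were kept. Of 392 comparisons for single genes, 351 stayed within 1.5 times, including values that were 0 in both settings, such as the CCNE1 body. The promoter call was lost for CCND1 and CCNA1 in Molm13 at a q-value below 0.001, and for those and CCNA1 in OCI-AML3 with lists of equal length. It changed for no gene with 1000 bp around a start, the canonical start alone or a q-value below 0.05. No paired analysis was possible because no comparison was tested and each line had a single list. Read depth, which decides how many peaks can be called, was unknown.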
